A study of Mus musculus with 18 samples.

Results

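The genes described are 10 genes of the brush border, chosen by symbol in the count tables of this series: *Vil1*, *Espn*, *Eps8*, *Myo1a*, *Ezr*, *Myo7b*, *Cdhr2*, *Cdhr5*, *Ush1c* and *Alpi*. They are 10 of 43346 genes in the table of raw counts, and all 10 passed the filter of a mean count above 0, which 26717 genes passed. Another 58 genes of the same structure and 13 transcription factors are described by their counts. The 10 genes and all lists were chosen with earlier results of these data known, so counts of called genes among them are descriptions.

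The brush border is the carpet of microvilli on the luminal side of absorptive intestinal cells. Each microvillus has a core of parallel actin filaments that is held together by bundling proteins, joined to the membrane by motors and linkers, and tied at its tip to its neighbours by protocadherins. Crypt cells at the bottom of the crypt carry few and short microvilli, and the carpet is built as cells move up towards the lumen, where digestive enzymes sit in its membrane.

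RNA was measured in Lgr5+ cells from crypts of the small intestine (SI) and the large intestine (LI) of untreated C57BL/6 mice of the genotype Lgr5_eGFP_Iris_creERT2, aged 8 to 20 weeks by the labels. All groups carry this allele, which places GFP under the *Lgr5* locus and is active in only a part of the crypts. Cells positive for Epcam were sorted by flow cytometry at 3 levels of GFP, with cells of the crypt centre at high, of its border at medium and above row 3 (row >3) at low GFP, and with 3 replicates in each of the 6 groups and 18 libraries in all. The comparisons ask how brush border genes differ between positions in the crypt and between the SI and the LI. The labels do not tie a replicate to a mouse, so p-values measure the spread between these samples.

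Between 8312093 and 31940965 reads were counted per library, with a median of 21934851. The 4 epithelial markers *Epcam*, *Cdh1*, *Krt8* and *Krt18* summed to between 2421 and 5948 CPM (counts scaled to the size of the library), whereas 6 immune markers summed to at most 27.3 and 6 stromal markers to at most 17.4 CPM. The 3 libraries of SI replicate 3 stood apart. In the SI centre, stem cell markers summed to 1423 CPM in replicate 3, below the 4951 and 5159 CPM of the other replicates, and colonocyte markers summed to 207, 1590 and 2619 CPM in centre, border and row >3 cells of SI replicate 3 and to at most 171 CPM in the other SI libraries. The part of this in the values below was not tested. Counts of called genes that rest on the SI are therefore given with all 18 libraries and with the 15 that remain without SI replicate 3. SI replicate 3 was singled out after the data were seen, and without it replicates 1 and 2 remain in each SI group.

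Values are the normalised counts deposited by the authors, given for replicates 1, 2 and 3 in that order. A normalised count is the count of a gene in a library divided by the size factor of that library. Differences were tested by the quasi-likelihood method of edgeR, with Benjamini-Hochberg adjusted p-values over all genes tested, and a gene was called at an adjusted p under 0.05. Log2 fold changes are given with a standard error (SE). In edgeR fits the SE is the absolute log2 fold change divided by the square root of the F statistic. The spread of a gene was estimated over all groups of a fit together. Spread between SI libraries therefore enters the SE and p-values of LI comparisons, except with only the groups compared. Whether libraries of 2 groups overlapped was counted over all genes on CPM with TMM factors, and it is said where the normalised counts of the 10 genes differ in this. In bulk samples, fewer cells of a type and less RNA per cell cannot be told apart.

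In row >3 cells of the SI, 7 of the 10 genes were higher than in centre cells (*Vil1*, *Myo1a*, *Ezr*, *Cdhr2*, *Cdhr5*, *Ush1c* and *Alpi*) and none was lower. Over all genes tested, 7.35% were called higher and 5.82% lower. These shares include genes with few reads. With filterByExpr, a filter that removes such genes, they were 14.2% and 11.6% of 15998 genes. The count of 7 was 4 without SI centre replicate 2 (4.77% of all genes) and 4 without SI row >3 replicate 1 (4.54%). The same 7 genes had every row >3 library above every centre library, which held for 12.8% of all genes tested. The median log2 fold change was 1.34 over the 10 genes and 0.04 over the 10347 genes with a mean count of at least 100. *Myo7b* and *Eps8* were not called in either direction. In the LI none of the 10 was called between the same levels, and their log2 fold changes lay between -0.52 for *Eps8* and 1.45 for *Alpi*. Of all genes, 0% were called higher and 0.0187% lower in the LI. Without SI replicate 3, with the same LI libraries, 0.982% were called higher and 0.917% lower.

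**Figure D1:**
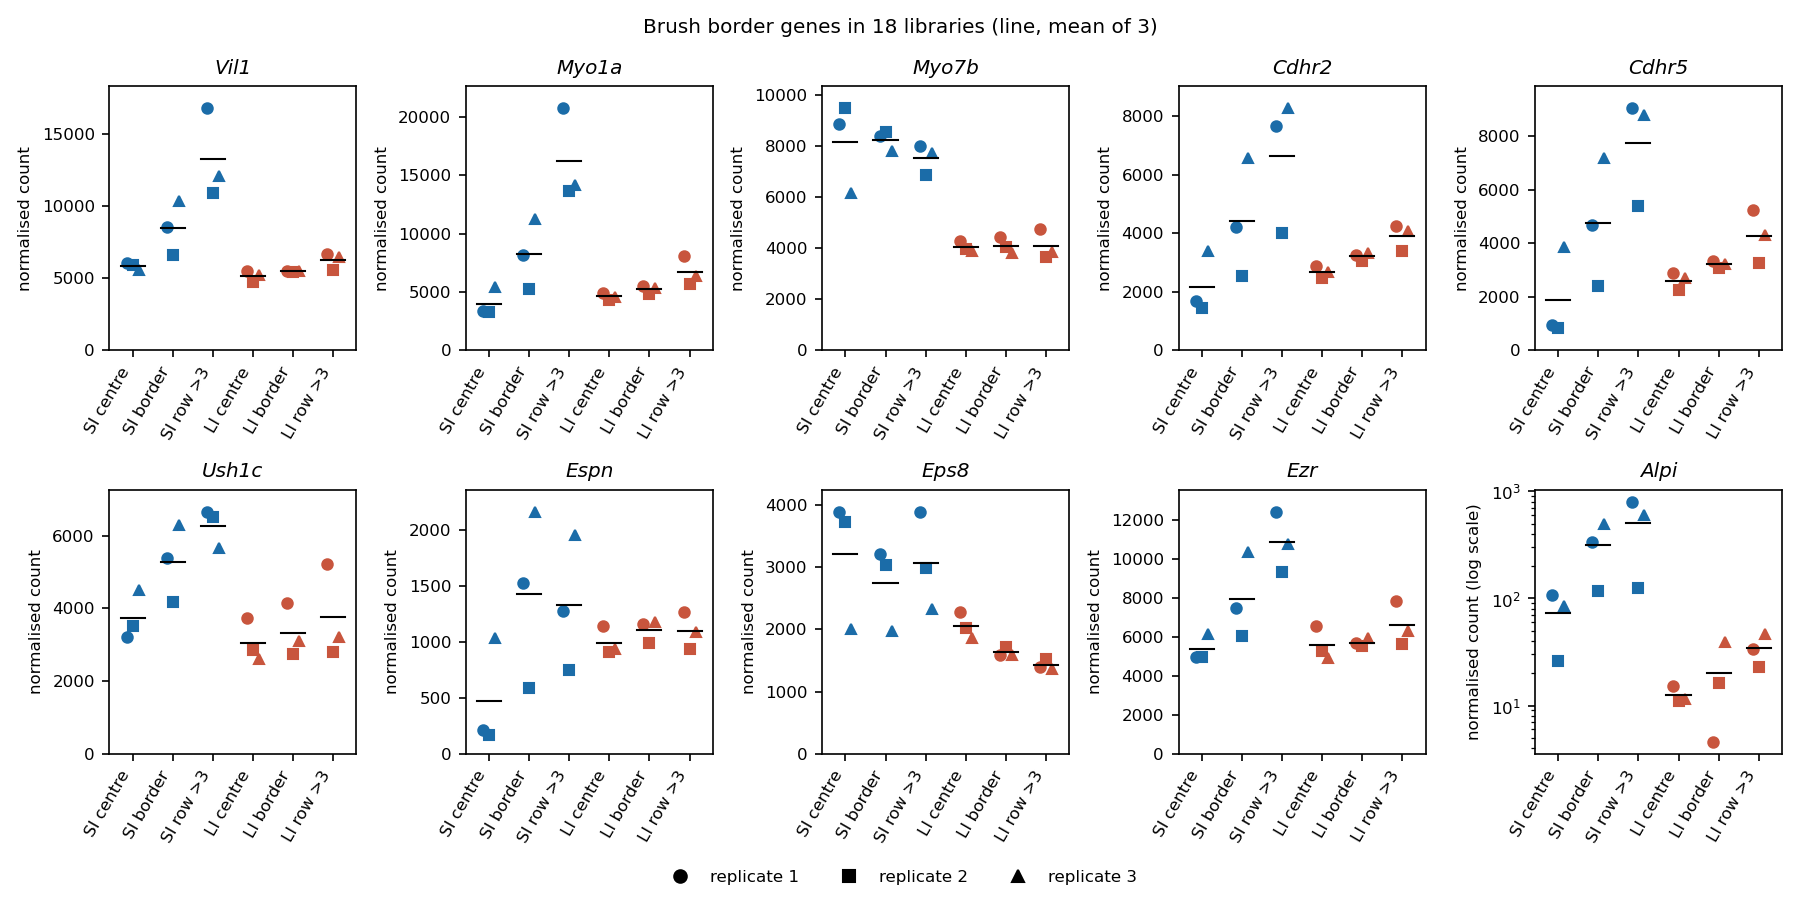
Normalised counts of the 10 genes in each of the 18 libraries, by group on the x axis (SI in blue, LI in red; the shape marks the replicate and the line is the mean of 3 libraries; the axis of Alpi is logarithmic). Vil1, Myo1a and Ezr climb from SI centre to SI row >3 with smaller steps in the LI, whereas Myo7b is at 6177 or more in all SI libraries and at 4768 or less in all LI libraries.

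Bundling proteins of the actin core differed among themselves. *Vil1* (chromosome 1, 74409376 to 74435559 on GRCm38, plus strand) encodes villin, which bundles and severs actin filaments. In the SI it had 6064, 5883 and 5553 normalised counts in centre, 8505, 6566 and 10329 in border and 16770, 10896 and 12058 in row >3 cells. In the LI it had 5489, 4750 and 5241 in centre, 5484, 5417 and 5488 in border and 6678, 5574 and 6457 in row >3 cells. The 3 SI levels did not overlap, and the LI row >3 libraries lay just above the LI centre libraries. From SI centre to SI row >3, *Vil1* rose by a log2 fold change of 1.19 ± 0.17 (SE, edgeR adjusted p = 8.16e-05), from a mean of 5833 ± 259 to 13241 ± 3111 (SD, n = 3). Part of *Vil1* lies opposite *Usp37*, which reached a group mean of 56.3 CPM, and reads there are assigned with certainty only if strand was used in counting.

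*Espn* (chromosome 4, 152120331 to 152152371, minus strand) encodes espin, another actin bundler. It had 210, 164 and 1033 normalised counts in SI centre, 1530, 592 and 2169 in SI border and 1282, 750 and 1956 in SI row >3 cells. Replicate 3 of the SI centre was far above the other replicates and above replicate 2 of both other levels. The log2 fold change from SI centre to SI row >3 was 1.50 ± 0.63 and was not called by edgeR (adjusted p = 0.159), whereas DESeq2 called it (adjusted p = 0.0325). Without SI replicate 3 it was 2.44 ± 0.35 (edgeR adjusted p = 7.53e-05), and with replicate numbers of each site as a block it was 1.79 ± 0.25 (adjusted p = 8.34e-05). In the LI, *Espn* stayed between 911 and 1270 in all 9 libraries. Beside it, 8 tuft cell markers, of which none was at 0 in any SI group, summed to 26.8, 35.1 and 468 CPM in SI centre, to between 308 and 963 in SI border and to between 95.5 and 390 CPM in SI row >3 cells. Their part in the *Espn* values was not tested.

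*Eps8* (chromosome 6, 137477245 to 137654876, minus strand) encodes a protein that caps and bundles actin filaments at the microvillus tip. It did not follow *Vil1*. Its normalised counts were 3894, 3722 and 2012 in SI centre, 3211, 3035 and 1975 in SI border and 3880, 2983 and 2324 in SI row >3 cells. In the LI they were 2274, 2028 and 1855 in centre, 1595, 1712 and 1580 in border and 1394, 1520 and 1356 in row >3 cells. SI replicate 3 was the lowest of its group at each level, and in the LI every border and row >3 library lay below every centre library. The difference between row >3 and centre cells was -0.06 ± 0.21 in the SI (adjusted p = 0.973) and -0.52 ± 0.21 in the LI (adjusted p = 0.62). In the LI *Eps8* was called lower without SI replicate 3 (-0.53 ± 0.13, edgeR adjusted p = 0.0344, against 0.917% of all genes) and with the block by replicate number (-0.52 ± 0.11, adjusted p = 0.0177).

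Among the proteins that join the core to the membrane, *Myo1a* and *Ezr* rose along the SI crypt. *Myo1a* (chromosome 10, 127705170 to 127720940, plus strand) encodes brush border myosin-1a, the motor that bridges the actin core and the membrane. It had 3351, 3245 and 5424 normalised counts in SI centre, 8207, 5256 and 11263 in SI border and 20765, 13637 and 14145 in SI row >3 cells. In the LI it had 4944, 4319 and 4578 in centre, 5501, 4866 and 5297 in border and 8052, 5718 and 6366 in row >3 cells. Row >3 libraries were above all others of their site in both the SI and the LI, with a wider step in the SI. The log2 fold change between row >3 and centre was 2.01 ± 0.25 in the SI (edgeR adjusted p = 7.07e-05) and 0.54 ± 0.24 in the LI (adjusted p = 0.675).

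*Ezr* (chromosome 17, 6738041 to 6782784, minus strand) encodes ezrin, which links membrane proteins to actin. In the SI it had 4987, 4988 and 6148 normalised counts in centre, 7457, 6051 and 10329 in border and 12426, 9348 and 10746 in row >3 cells. In the LI the 9 libraries lay between 4912 and 7855, and the levels overlapped. *Ezr* rose in SI row >3 cells by a log2 fold change of 1.02 ± 0.18 (edgeR adjusted p = 0.000716) and differed by 0.24 ± 0.18 in the LI (adjusted p = 0.923).

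The intermicrovillar adhesion complex is made of the protocadherins CDHR2 and CDHR5, which meet between the tips of neighbouring microvilli, the scaffold harmonin encoded by *Ush1c*, the motor encoded by *Myo7b* and the partners encoded by *Anks4b* and *Calml4*. Not all of its genes were called in the SI. *Cdhr2* (chromosome 13, 54701461 to 54736662, plus strand) had 1674, 1447 and 3408 normalised counts in SI centre, 4201, 2527 and 6573 in SI border and 7665, 4010 and 8286 in SI row >3 cells. *Cdhr5* (chromosome 7, 141269083 to 141276786, minus strand) had 925, 845 and 3857 in SI centre, 4670, 2402 and 7190 in SI border and 9042, 5372 and 8768 in SI row >3 cells. In centre cells, replicate 3 was above both other replicates for the 2 protocadherins, and for each of them replicate 2 was the lowest library at all 3 SI levels. In the LI, *Cdhr2* had 2898, 2487 and 2683 in centre, compared with 4259, 3406 and 4077 in row >3 cells, and *Cdhr5* had 2866, 2254 and 2688 in centre, compared with 5241, 3274 and 4297 in row >3 cells.

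Between row >3 and centre cells of the SI, *Cdhr2* rose by a log2 fold change of 1.62 ± 0.37 (edgeR adjusted p = 0.00859) and *Cdhr5* by 2.04 ± 0.54 (adjusted p = 0.0249). Without SI replicate 3 the values were 1.91 ± 0.25 (adjusted p = 1.53e-05) and 3.03 ± 0.30 (adjusted p = 1.83e-06). *Cdhr5* was not called when SI centre replicate 1 (adjusted p = 0.0943) or replicate 2 (0.0837) or SI row >3 replicate 1 (0.0739) or replicate 3 (0.0583) was left out. In the LI the log2 fold changes were 0.55 ± 0.36 for *Cdhr2* (adjusted p = 0.881) and 0.72 ± 0.52 for *Cdhr5* (adjusted p = 0.924). Without SI replicate 3, with the same LI libraries, these LI values were 0.54 ± 0.19 (edgeR adjusted p = 0.212) and 0.71 ± 0.22 (adjusted p = 0.143). Row >3 libraries of the LI were above centre libraries for both genes, and with the block by replicate number *Cdhr2* was called (0.54 ± 0.13, adjusted p = 0.0274).

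*Ush1c* (chromosome 7, 46195350 to 46238503, minus strand) had 3220, 3512 and 4499 normalised counts in SI centre, 5383, 4167 and 6304 in SI border and 6669, 6513 and 5653 in SI row >3 cells. The row >3 libraries were close to each other and all above the centre libraries. *Ush1c* rose by a log2 fold change of 0.75 ± 0.21 (edgeR adjusted p = 0.0222), and it was not called without SI centre replicate 1 (adjusted p = 0.116) or replicate 2 (0.0904) or without SI row >3 replicate 1 (0.0701) or replicate 2 (0.0534), nor with scaling by library size only (0.58 ± 0.21, adjusted p = 0.0808). In the LI it had 3745, 2846 and 2597 in centre, 4159, 2736 and 3095 in border and 5233, 2808 and 3222 in row >3 cells, where replicate 1 was the highest library at each level. The log2 fold change in the LI was 0.30 ± 0.21 (adjusted p = 0.913).

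*Myo7b* (chromosome 18, 31959234 to 32036961, minus strand) encodes the myosin that carries the complex to the tips, and its counts separated the sites rather than the levels. It had 8880, 9506 and 6177 normalised counts in SI centre, 8392, 8566 and 7823 in SI border and 8003, 6865 and 7754 in SI row >3 cells. In the LI it had 4271, 3981 and 3885 in centre, 4463, 4045 and 3819 in border and 4768, 3673 and 3871 in row >3 cells. All 9 SI libraries lay above all 9 LI libraries. Row >3 and centre cells differed by a log2 fold change of -0.11 ± 0.15 in the SI (edgeR adjusted p = 0.762) and of 0.02 ± 0.15 in the LI (adjusted p = 1).

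Of the partners of the complex, *Anks4b* had 827, 728 and 986 normalised counts in SI centre, compared with 1933, 1347 and 2165 in SI row >3 cells, and rose by a log2 fold change of 1.10 ± 0.25 (edgeR adjusted p = 0.004), or by 1.08 ± 0.19 without SI replicate 3. *Calml4*, which encodes a light chain of this myosin, had 997, 1199 and 1050 in SI centre, compared with 1618, 1433 and 1389 in SI row >3 cells. Its row >3 libraries were above its centre libraries, with a log2 fold change of 0.46 ± 0.20 that was not called (adjusted p = 0.144) except with the block by replicate number (adjusted p = 0.0369). Of the 6 genes of the complex, 4 were thus called higher in SI row >3 cells, against 7.35% of all genes.

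**Figure D2:**
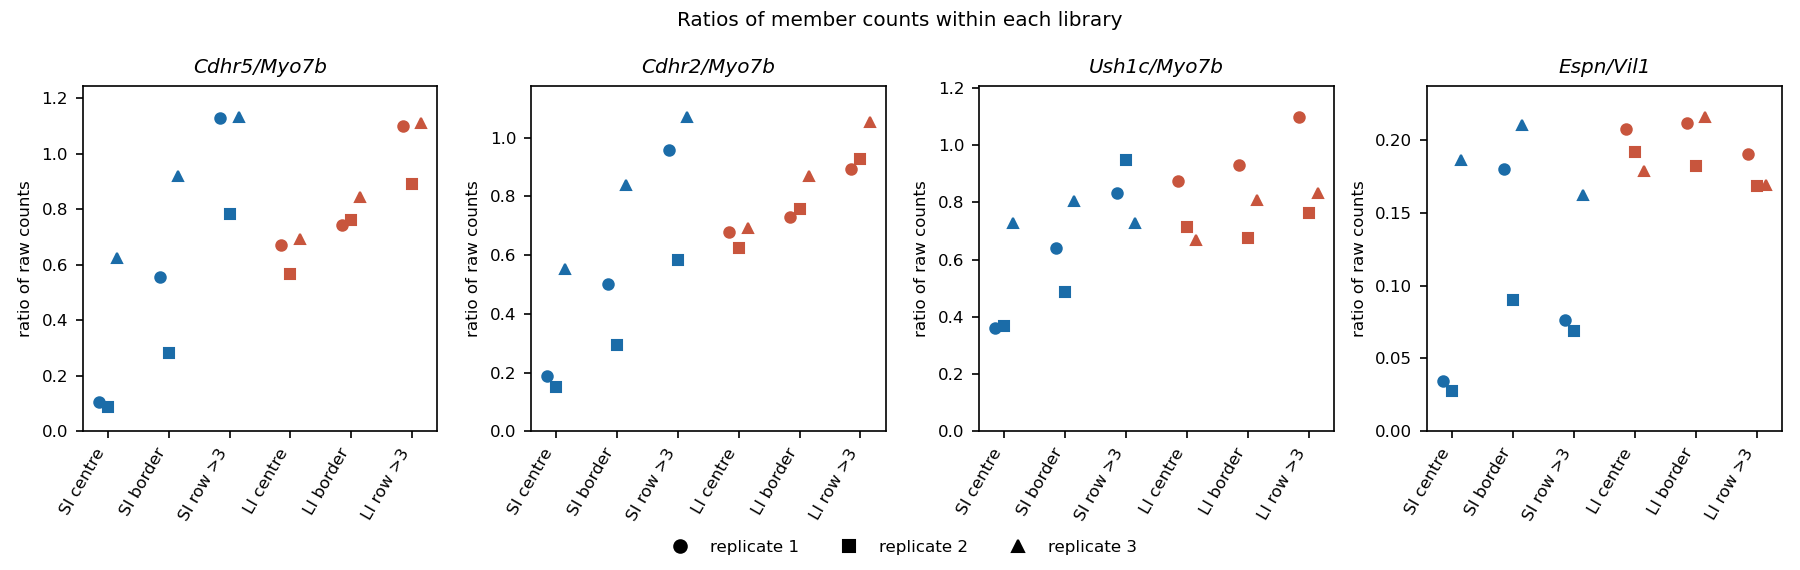
Ratio of the raw counts of pairs of genes within each library (SI in blue, LI in red, shapes as replicates), which no scaling between libraries can change. Cdhr5 to Myo7b goes from 0.104 and 0.0889 in SI centre replicates 1 and 2 to between 0.783 and 1.13 in SI row >3 cells, with SI centre replicate 3 at 0.624, next to LI centre libraries.

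Ratios within a library do not depend on the scaling between libraries. The ratio of raw counts of *Cdhr5* to *Myo7b* was 0.104, 0.0889 and 0.624 in SI centre and between 0.783 and 1.13 in SI row >3 cells. In LI centre it lay between 0.566 and 0.692, and in LI row >3 between 0.891 and 1.11. Thus SI centre replicates 1 and 2 had the lowest ratio of *Cdhr5* to the motor gene of all libraries, and SI centre replicate 3 lay within the range of LI centre libraries. For *Cdhr2* to *Myo7b* it did not, at 0.552 compared with 0.625 to 0.691 in LI centre. The ratio of *Myo1a* to *Vil1* was 0.553, 0.552 and 0.977 in SI centre and between 1.17 and 1.25 in SI row >3 cells, and between 0.873 and 1.21 in the LI. The ratio of *Espn* to *Vil1* was 0.0346, 0.0279 and 0.186 in the SI centre libraries, between 0.0688 and 0.162 in SI row >3 cells and between 0.169 and 0.216 in all LI libraries.

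*Alpi* (chromosome 1, 87098002 to 87101606, minus strand) encodes intestinal alkaline phosphatase, an enzyme of the mature brush border membrane. It had 108, 25.8 and 85.8 normalised counts in SI centre, 335, 117 and 494 in SI border and 805, 125 and 596 in SI row >3 cells. In the LI it had 15.3, 10.9 and 11.5 in centre, 4.6, 16.2 and 39.5 in border and 33.7, 22.8 and 46.2 in row >3 cells, which rest on 5 to 53 raw counts. Each level of the SI was above all LI libraries except for SI centre replicate 2, and replicate 2 was the lowest library at each SI level. *Alpi* rose in SI row >3 cells by a log2 fold change of 2.79 ± 0.69 (edgeR adjusted p = 0.0141), and was not called without SI centre replicate 2 (adjusted p = 0.0577) or without SI row >3 replicate 1 (0.0589). Close paralogues of this gene can share its reads, so its values are uncertain. Markers of SI enterocytes, 8 genes with none at 0 in the SI, summed to between 225 and 450 CPM in SI centre and to between 425 and 1532 CPM in SI row >3 cells.

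Promoter sequences from RefSeq (GRCm38.p6) were matched for 8 of the 10 genes, with 10 start sites in all. *Myo7b* and *Eps8* had no entry. They were searched on both strands for CAAAGTCCA, a motif of HNF4, and TTTATG, a motif of CDX factors, which can overlap each other only at their end bases. The HNF4 letters are in 0.384% and the CDX letters in 10.8% of 32851 promoters with the same 250 bases before the start. They were found at *Alpi*, at *Cdhr5* and at 1 of 3 starts of *Espn*. The promoters of *Alpi* (chr1:87101607-87101856, minus strand) and *Cdhr5* (chr7:141276787-141277036, minus strand) are shown because these genes had log2 fold changes above 2 in SI row >3 cells and hold a match, a choice made after the values were seen. Capitals mark the match, which begins at position -19 from the start of *Alpi* and at position -39 from that of *Cdhr5*, where the letters of the CDX motif are on the opposite strand.

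Alpi: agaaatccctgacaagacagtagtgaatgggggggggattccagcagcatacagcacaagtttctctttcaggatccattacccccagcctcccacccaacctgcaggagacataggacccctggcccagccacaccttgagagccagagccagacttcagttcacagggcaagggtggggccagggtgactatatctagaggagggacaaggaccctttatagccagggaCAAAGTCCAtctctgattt
Cdhr5: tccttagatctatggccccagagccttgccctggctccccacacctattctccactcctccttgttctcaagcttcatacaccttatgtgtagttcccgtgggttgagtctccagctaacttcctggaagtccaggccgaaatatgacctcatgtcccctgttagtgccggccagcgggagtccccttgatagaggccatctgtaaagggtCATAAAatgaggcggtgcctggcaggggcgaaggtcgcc

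*Myo1a*, also with a log2 fold change above 2, held neither motif in this window. A match describes letters only.

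**Figure D3:**
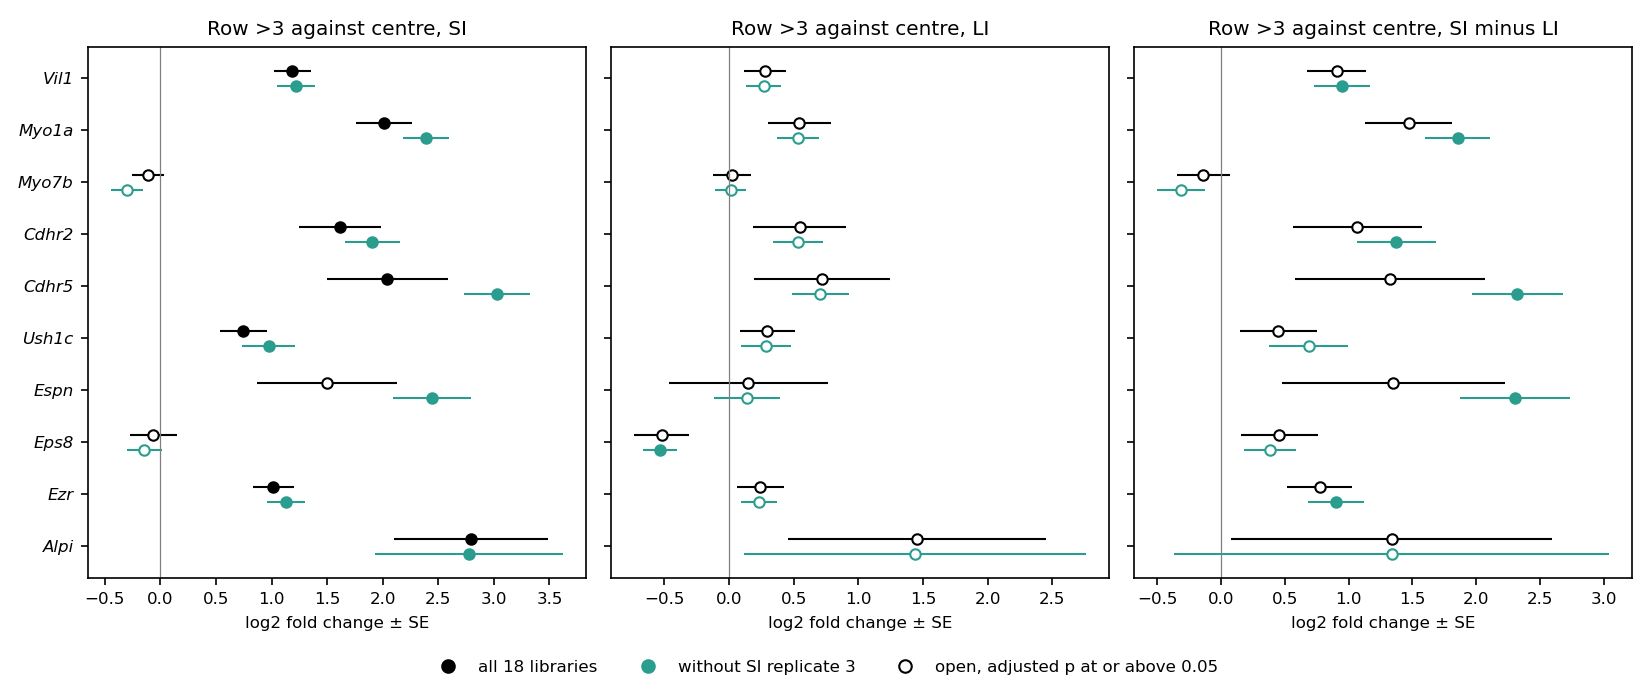
Log2 fold change ± SE of row >3 against centre cells for the 10 genes in the SI, in the LI and as the difference between both sites, with all 18 libraries (black) and without SI replicate 3 (green); open points have an adjusted p at or above 0.05. Without SI replicate 3, 8 genes are called higher in the SI, against 9.97% of all genes, and 6 differ between the sites, against 2.57%.

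Leaving out SI replicate 3 raised the count in the SI from 7 to 8 of 10 genes, with *Espn* added, while 9.97% of all genes tested were then called higher. Beside *Cdhr2*, *Cdhr5* and *Espn*, given above, the log2 fold changes were then 1.22 ± 0.17 for *Vil1*, 2.39 ± 0.21 for *Myo1a*, 1.13 ± 0.17 for *Ezr*, 0.97 ± 0.24 for *Ush1c* and 2.78 ± 0.85 for *Alpi* (adjusted p = 0.0445). With the replicate numbers of each site as a block the same 8 genes were called, against 12.4% of all genes. When only the libraries of the SI row >3 and SI centre were fitted, 4 genes were called (*Vil1*, *Myo1a*, *Ush1c* and *Ezr*), against 6.46% of all genes. The 4 epithelial markers summed to between 2421 and 3429 CPM in SI centre and to between 4971 and 5948 CPM in SI row >3 cells without overlap, and *Krt8* and *Cdh1* were called higher. Goblet cell markers moved with the same contrast, with 5 of 7 called higher and *Clca1* lower. The 7 genes, none at 0 in any group, summed to 754, 1341 and 10645 CPM in SI centre and to between 32503 and 51652 CPM in SI row >3 cells, and stem cell markers summed to between 57.8 and 623 CPM in SI row >3 cells. Without SI replicate 3, 6 of the 7 goblet cell markers, 7 of the 8 tuft cell markers and no stem cell marker were called higher. Paneth cell markers summed to between 1689 and 7840 CPM in SI centre and to between 215 and 4592 CPM in SI row >3 cells. The part of all these markers in the brush border values was not tested.

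Border cells of the SI had a mean between those of centre and row >3 cells for 7 of the 10 genes. None of the 10 was called against centre cells with edgeR, although 8 had an unadjusted p under 0.05, and DESeq2 called *Myo1a*. Of all genes tested, 0.0112% were called higher in edgeR and 0.425% in DESeq2, and 8.98% had an unadjusted p under 0.05. The log2 fold changes ranged from -0.24 ± 0.21 for *Eps8* to 2.10 ± 0.70 for *Alpi*, with 1.04 ± 0.24 for *Myo1a* (edgeR adjusted p = 0.168) and 1.02 ± 0.36 for *Cdhr2* (adjusted p = 0.388). With 1 library left out at a time, they ranged from -0.50 to -0.069 for *Eps8* and from 1.52 to 2.51 for *Alpi*. In the same fits they ranged from 0.71 to 1.30 for *Myo1a* and from 0.59 to 1.49 for *Cdhr2*. *Vil1* and *Alpi* were the genes whose border libraries were all above the centre libraries, against 3.85% of all genes. With the block by replicate number, *Vil1*, *Myo1a*, *Cdhr2*, *Espn*, *Ezr* and *Alpi* were called higher, and 1.55% of all genes were. When SI replicate 3 was left out, *Myo1a* (adjusted p = 0.0126), *Cdhr2* (0.0391), *Cdhr5* (0.00184) and *Espn* (0.00177) were called, against 0.905% of all genes. Leaving out SI centre replicate 3 alone gave the same count of 4 (1.14% of all genes), and leaving out SI border replicate 2 gave 1 (0.526%). Markers of other cell types differed too, with overlapping ranges. Goblet cell markers summed to 754, 1341 and 10645 CPM in centre and to between 4437 and 14037 in border cells. Tuft cell markers summed to 26.8, 35.1 and 468 CPM in centre and to between 308 and 963 in border cells. Stem cell markers summed to between 1423 and 5159 CPM in centre and to between 154 and 3444 in border cells. Their part in these values was not tested.

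In the LI, between row >3 and centre cells, 2 of the 10 genes had an unadjusted p under 0.05 (*Myo1a* and *Eps8*), as did 6.96% of all genes, DESeq2 called none, and edgeR called none, as given above. The libraries did not overlap for 5 genes that were higher in row >3 cells (*Vil1*, *Myo1a*, *Cdhr2*, *Cdhr5* and *Alpi*; 7.79% of all genes) and for *Eps8*, which was lower (7.07% of all genes). With the block by replicate number, 1 gene was called higher (1.28% of all genes) and 1 lower (1.31%), as given above for *Cdhr2* and *Eps8*. Goblet cell markers summed to between 7435 and 12129 CPM in LI centre and to between 16160 and 25209 in LI row >3 cells. Colonocyte markers summed to between 296 and 428 CPM in centre and to between 982 and 1607 in row >3 cells. Stem cell markers summed to between 367 and 411 CPM in centre and to between 80.8 and 116 in row >3 cells. The part of these markers in the values of the 10 genes was not tested. Between border and centre cells edgeR called none of the 10 genes, with or without the block, none had an unadjusted p under 0.05 (1.38% of all genes), DESeq2 called none, and 0% of all genes were called. Border libraries were all above centre libraries for *Cdhr2* and *Cdhr5* and, on CPM but not on normalised counts, for *Myo1a* (2.7% of all genes), and all below for *Eps8* (2.74%). The fitted differences there ranged from -0.33 ± 0.21 for *Eps8* to 0.79 ± 1.07 for *Alpi*.

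The log2 fold change of row >3 against centre was above that of the LI in the SI for 9 of the 10 genes, but the difference of the contrasts was called for none with all 18 libraries in edgeR, where 0% of all genes were. At an unadjusted p under 0.05 there were 6.74% of all genes and 3 of the 10, *Vil1* (0.91 ± 0.23, adjusted p = 0.213), *Myo1a* (1.47 ± 0.34, adjusted p = 0.18) and *Ezr* (0.77 ± 0.26, adjusted p = 0.441), and DESeq2 called *Myo1a*, against 0.267% of all genes. For *Myo1a*, *Ezr*, *Cdhr2*, *Cdhr5* and *Espn*, SI centre replicate 3 was the highest SI centre library, so leaving it out lowers the centre mean. After leaving out SI replicate 3 the difference was called for 6 genes and 2.57% of all genes. It was 0.95 ± 0.22 for *Vil1* (adjusted p = 0.0136), 1.85 ± 0.26 for *Myo1a* (adjusted p = 0.000146) and 0.90 ± 0.22 for *Ezr* (adjusted p = 0.0209). For the protocadherin genes *Cdhr2* (1.37 ± 0.31, adjusted p = 0.0154) and *Cdhr5* (2.32 ± 0.36, adjusted p = 0.00124) and for *Espn* (2.30 ± 0.43, adjusted p = 0.00487) the difference was also called. With the block by replicate number 5 of these 6 genes were called, *Cdhr5* not (adjusted p = 0.102), against 1.51% of all genes. Leaving out SI centre replicate 3 alone gave 3 genes (*Myo1a*, *Cdhr5* and *Espn*), against 0.757% of all genes. For the same difference without SI replicate 3, 6 of the 8 tuft cell markers and 3 of the 7 goblet cell markers were called too, and their part in it was not tested.

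**Figure D4:**
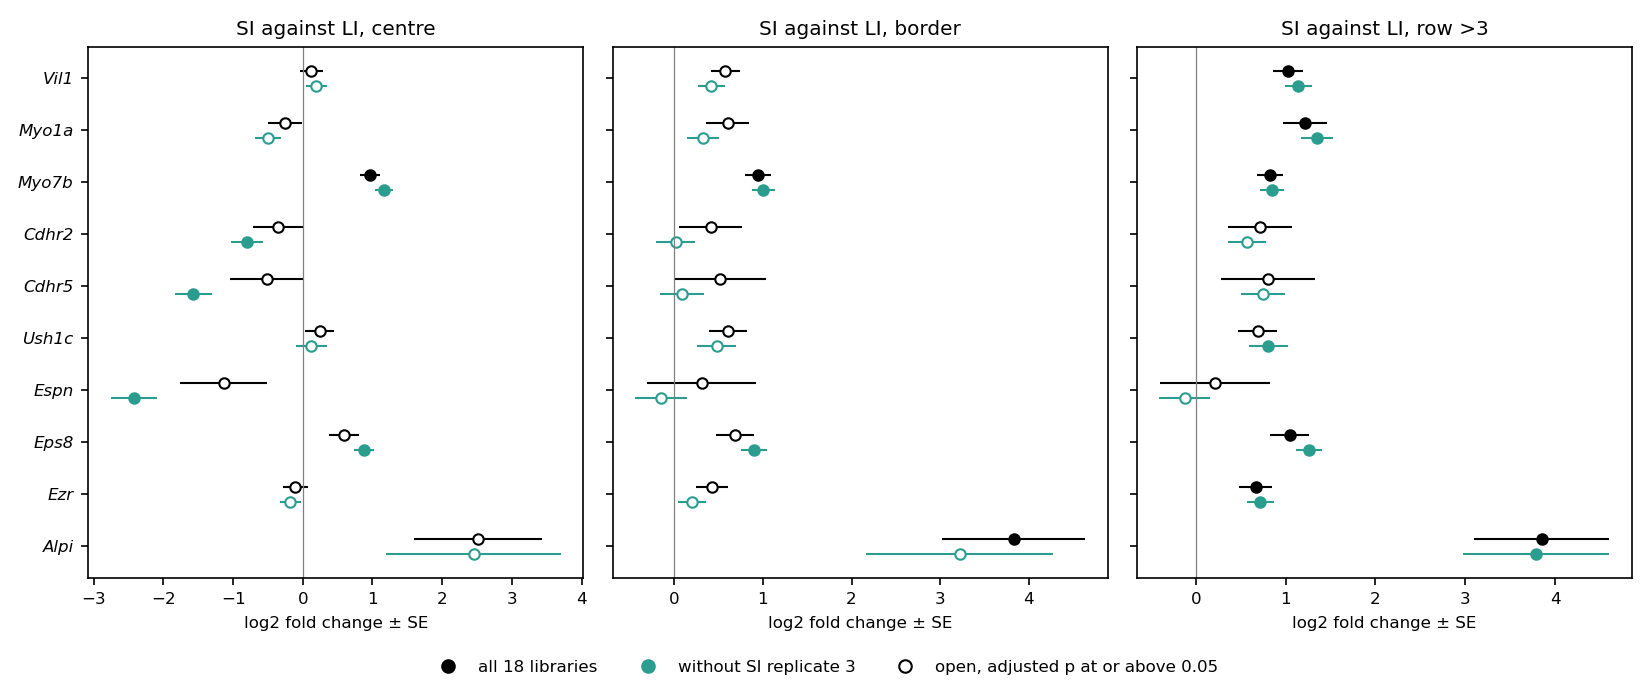
Log2 fold change ± SE of the SI against the LI at each level of GFP for the 10 genes, with all 18 libraries (black) and without SI replicate 3 (green); open points have an adjusted p at or above 0.05. Myo7b is between 0.82 and 0.96 at all 3 levels with all 18 libraries and between 0.85 and 1.17 without SI replicate 3, and Myo1a, Cdhr2, Cdhr5, Espn and Ezr lie below 0 in centre cells in both fits.

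Between the SI and the LI, *Myo7b* was higher in the SI at each level. The log2 fold change was 0.96 ± 0.15 in centre (edgeR adjusted p = 0.000948), 0.95 ± 0.15 in border (adjusted p = 0.00109) and 0.82 ± 0.15 in row >3 cells (adjusted p = 0.00162). No other of the 10 genes was called in centre cells with all libraries, where 1.19% of all genes were called higher in the SI and 0.805% lower. *Alpi* was at 2.51 ± 0.92 (adjusted p = 0.196) and was called by DESeq2 with 2.07% of all genes. SI libraries were all above LI libraries for *Vil1*, *Myo7b* and *Alpi* (8.49% of all genes). Once SI replicate 3 was left out, *Myo7b* (1.17 ± 0.13) and *Eps8* (0.88 ± 0.14, adjusted p = 0.000112) were higher in the SI centre. *Cdhr2* (-0.80 ± 0.22, adjusted p = 0.0246), *Cdhr5* (-1.57 ± 0.27, adjusted p = 0.000674) and *Espn* (-2.42 ± 0.33, adjusted p = 6.9e-05) were lower there. Of all genes, 4.51% were then higher and 6.39% lower. Leaving out SI centre replicate 3 alone gave 4 genes, those named other than *Cdhr2*, against 1.97% of all genes higher and 2.69% lower. Markers of other cell types differed between the same libraries. Goblet cell markers were at 754 and 1341 CPM in SI centre replicates 1 and 2 and between 7435 and 12129 CPM in LI centre, and tuft cell markers were at 26.8 and 35.1 CPM compared with 153 to 242 CPM in LI centre. Stem cell markers were at 5159 and 4951 CPM in these SI libraries and between 367 and 411 CPM in LI centre. Without SI replicate 3, 4 of 7 goblet and 5 of 8 tuft cell markers were called lower and 3 of 5 stem cell markers higher in the SI, with none of these genes at 0 in either group. Paneth cell markers summed to between 1689 and 7840 CPM in SI centre and to at most 4.41 CPM in LI centre, where 3 of the 6 genes were at 0. The part of all these markers in the differences of the brush border genes was not tested.

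In border cells *Myo7b* and *Alpi* (3.83 ± 0.81, edgeR adjusted p = 0.0255) were higher in the SI, against 1.15% of all genes, and the SI libraries were all above the LI libraries for these, *Vil1* and *Eps8* (6.45% of all genes) and, on normalised counts but not on CPM, for *Ush1c* and *Ezr*. *Alpi* was not called without SI border replicate 1 (adjusted p = 0.0728) or 3 (0.0588), without LI border replicate 1 (0.0824) or 2 (0.122), or without SI replicate 3 at all levels (0.0999). Border libraries of both sites with the same replicate number correlated at 0.181 to 0.298, and a pairing is not established. With the numbers as a block *Vil1* (edgeR adjusted p = 0.0307) and *Eps8* (0.0323) were called too, with 2.3% of all genes. *Vil1* was also called by DESeq2 (0.63 ± 0.18, adjusted p = 0.0233, 2.37% of all genes) and with RLE factors (adjusted p = 0.0492). *Eps8* was higher in the SI by 0.90 ± 0.14 without SI replicate 3 (adjusted p = 0.000136, against 3.7% of all genes) and *Myo7b* by 1.01 ± 0.13. *Espn* then turned from 0.31 ± 0.61 to -0.15 ± 0.30, with no call in either fit. SI enterocyte markers summed to between 405 and 831 CPM in SI border and to between 196 and 330 CPM in LI border, with 5 of 8 called higher in the SI.

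Between SI and LI row >3 cells, 2.76% of all genes were called higher in the SI and 1.32% lower. With filterByExpr these shares were 5.94% and 2.63% of 15998 genes. In row >3 cells, 6 of the 10 genes were higher in the SI and none was lower. They were *Vil1* (1.03 ± 0.16, edgeR adjusted p = 0.000562), *Myo1a* (1.21 ± 0.24, adjusted p = 0.00652), *Myo7b*, *Eps8* (1.05 ± 0.22, adjusted p = 0.00576), *Ezr* (0.67 ± 0.18, adjusted p = 0.0381) and *Alpi* (3.85 ± 0.75, adjusted p = 0.00843). The SI libraries were all above the LI libraries for these 6 and for *Ush1c*, which held for 9.03% of all genes, and on normalised counts but not on CPM for *Cdhr5*. The same 6 and *Ush1c* (0.81 ± 0.21, adjusted p = 0.0156) were called without SI replicate 3, when 6.8% of all genes were called higher, and *Myo7b* was at 0.85 ± 0.13. *Ezr* was not called without SI row >3 replicate 1 (adjusted p = 0.207) or LI row >3 replicate 2 (0.169) or 3 (0.111), with library size only (0.052) or with no filter (0.0616), *Eps8* not without SI row >3 replicate 1 (0.0826) and *Alpi* not without LI row >3 replicate 2 (0.0595) or with only the groups compared (0.0638). The protocadherin genes and *Espn* were not called at this level, with log2 fold changes of 0.71 ± 0.36 for *Cdhr2*, 0.80 ± 0.52 for *Cdhr5* and 0.22 ± 0.61 for *Espn*. SI enterocyte markers summed to between 425 and 1532 CPM in SI row >3 and to between 176 and 343 CPM in LI row >3, where *Apoa4* was at 0, and 5 of 8 were called higher in the SI. Goblet cell markers summed to between 32503 and 51652 CPM in the SI and to between 16160 and 25209 CPM in the LI, with none of 7 called. Paneth cell markers summed to between 215 and 4592 CPM in the SI and to at most 12.5 CPM in the LI, with 4 of 6 called higher. Their part in the values of the 10 genes was not tested.

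Levels of different genes were compared per kilobase of merged exons over all annotated transcripts, which understates a gene whose cells use a short transcript. In SI centre cells *Vil1* had 1643 ± 72.8 and *Ezr* 1634 ± 204 normalised counts per kilobase (SD, n = 3), with overlapping libraries, ahead of *Myo7b* at 1237 ± 267. In SI row >3 cells *Myo1a* came first with 4357 ± 1071, followed by *Vil1* with 3729 ± 876 and *Ezr* with 3295 ± 468, again with overlapping libraries, and *Myo7b* was the seventh with 1139 ± 90.3. In LI centre *Ezr* had 1697 ± 266 and *Vil1* 1453 ± 106. *Eps8*, *Espn* and *Alpi* were the 3 lowest genes in each of the 6 groups.

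The wider list of 58 genes was described in the same fits. In SI row >3 cells 27 of them were higher than in centre cells and none was lower, against 7.35% and 5.82% of all genes. With filterByExpr these shares of all genes were 14.2% and 11.6%. The median log2 fold change was 0.73 over the list and 0.04 over the 10347 genes with a mean count of at least 100. By role the 27 were 7 of 11 motors and membrane linkers, 2 of 10 bundling and tip proteins, 5 of 10 apical trafficking and kinase genes, 3 of 5 apical membrane proteins, 9 of 20 hydrolases and *Anks4b*. *Myo1d*, a second class I myosin of the brush border, had 3421, 3365 and 3760 normalised counts in SI centre, compared with 10255, 7825 and 7849 in SI row >3 cells. *Slc9a3r1*, the scaffold that anchors apical transporters to ezrin, had 1842, 1570 and 1678 in centre, compared with 5790, 3150 and 4903 in row >3 cells. *Muc13*, a membrane mucin, rose by 1.08 ± 0.17 (edgeR adjusted p = 0.000249), and the ectonucleotidase gene *Enpp3* rose by 3.92 ± 0.58 (adjusted p = 0.000117). *Myo1d* rose by 1.30 ± 0.15 (adjusted p = 2.51e-05) and *Slc9a3r1* by 1.45 ± 0.22 (adjusted p = 0.000157). The count of 27 was 16 without SI centre replicate 2 (4.77% of all genes) and 15 without SI row >3 replicate 1 (4.54%), and without SI replicate 3 at all levels 29 were higher and *Prom1* lower (9.97% and 7.09%). In the LI no gene of the list was called between row >3 and centre, and 5 of the 58 had an unadjusted p under 0.05, as did 6.96% of all genes. DESeq2 called *Myo1d* higher there (0.0601% of all genes), the fit without SI replicate 3 called 2 higher (0.982%), that of only the groups compared 2 (0.542%) and that with the block by replicate number 3 (1.28%).

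**Figure D5:**
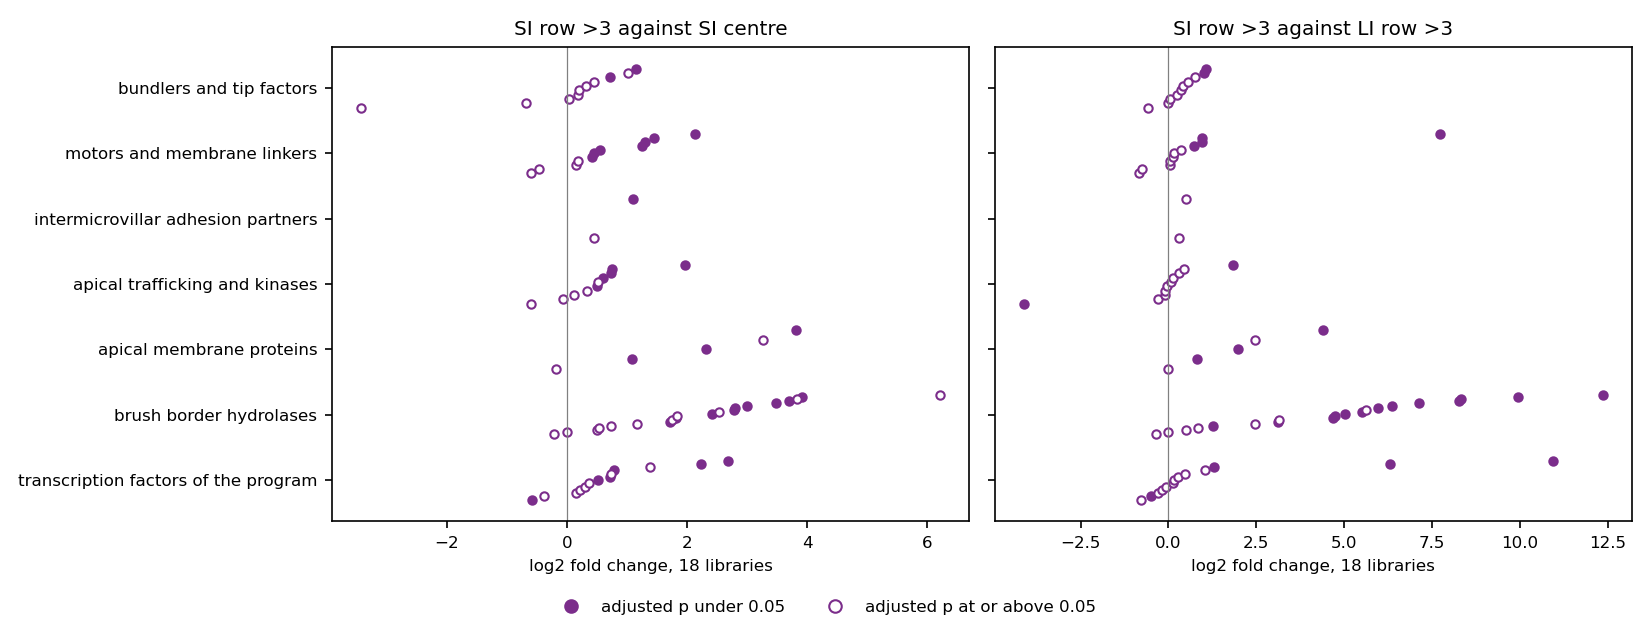
Fitted log2 fold changes of the 58 other brush border genes by role and of 13 transcription factors, for SI row >3 against SI centre (left) and SI row >3 against LI row >3 (right), with all 18 libraries; filled points have an adjusted p under 0.05. In the left panel 27 of the 58 are called higher, against 7.35% of all genes, and in the right panel 23 are called higher and 1 lower, against 2.76% and 1.32%; in the right panel the fitted values of genes with few or no reads in the LI, such as Pdzk1, depend on the prior count.

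Against LI row >3 cells, 23 of the 58 were higher and 1 was lower in SI row >3 cells, and 13 of the 23 were hydrolases. Of all genes, 2.76% were higher and 1.32% lower, and with filterByExpr these shares were 5.94% and 2.63%. Of the 58, 26 were higher and 1 lower without SI replicate 3 (6.8% and 5.36% of all genes). The peptidase gene *Naaladl1* had 8810, 2379 and 3873 normalised counts in SI row >3 and 153, 150 and 140 in LI row >3 cells. *Enpp3* had 519, 411 and 123 in SI row >3 and 4.55, 10.6 and 6.6 in LI row >3 cells. *Pdzk1*, a scaffold for apical transporters, had 708, 73.5 and 440 in the SI and at most 5 raw counts in each LI row >3 library. The kinase gene *Stk26* was lower, with 4.79, 3.95 and 9.37 in the SI and 102, 122 and 50 in the LI, although its libraries in SI border cells lay between 21 and 44.9.

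At the other levels fewer genes of the list were called. In centre cells 7 of the 58 were higher in the SI and *Stk26* was lower, against 1.19% and 0.805% of all genes. The count of 7 was 2 without SI centre replicate 1 (0.539% of all genes), 3 without LI centre replicate 1 (0.729%), 2 without LI centre replicate 2 (0.378%) and 1 without LI centre replicate 3 (0.4%). It was 14 with DESeq2 (2.07%) and 14 with the block over all libraries (2.55%). With SI replicate 3 left out, 10 were higher and 2 lower (4.51% and 6.39%). *Naaladl1* had 1827, 1180 and 1297 against 119, 134 and 171 in the LI, and *Baiap2l2*, which encodes a membrane-bending protein of the microvillus, had 4008, 3903 and 4476 against 2270, 2362 and 2079. In border cells 11 were higher, against 1.15% of all genes, and none was lower, with *Enpep*, a peptidase, at 923, 565 and 2573 against 34.9, 28.7 and 59.6. The count of 11 was 6 without LI border replicate 1 (0.643% of all genes), 3 without LI border replicate 2 (0.421%) and 7 without LI border replicate 3 (0.414%), and it was 18 with DESeq2 (2.37%) and 18 with the block over all libraries (2.3%). It was also 11 without SI replicate 3 (3.7%). In the 6 fits that each left out 1 library, *Baiap2l2* was called in 5 for centre cells.

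A list of 13 transcription factors was followed, and whether they act on these genes was not tested. In SI row >3 against centre cells *Cdx1* (0.71 ± 0.14, edgeR adjusted p = 0.00199), *Klf4* (2.23 ± 0.46, adjusted p = 0.00544), *Hnf4g* (0.79 ± 0.23, adjusted p = 0.0233) and *Maf* (2.69 ± 0.71, adjusted p = 0.0241) rose, as did *Klf5*, named as the only other factor that was called, and *Smad4* fell (-0.58 ± 0.14, adjusted p = 0.00648). These were 5 factors higher and 1 lower, against 7.35% and 5.82% of all genes, and without SI replicate 3 they were 7 and 1 (9.97% and 7.09%). In the 6 fits that each left out 1 library of these groups, *Hnf4g* and *Klf5* were called in 2 and *Maf* in 3, with *Klf4* in all 6. In the LI none was called with all libraries or by DESeq2, 3 had an unadjusted p under 0.05 (6.96% of all genes), and *Klf4* was called without SI replicate 3 (1.29 ± 0.21, adjusted p = 0.00237) and with the block by replicate number (adjusted p = 0.00376), which also called *Cdx2*. *Hnf4g* had 2039, 1159 and 1185 normalised counts in SI row >3 and 398, 694 and 631 in LI row >3 cells, a difference of 1.29 ± 0.23 (adjusted p = 0.00186). *Maf* had 2682, 674 and 1517 in SI row >3 and 24.6, 22.8 and 11.3 in LI row >3 cells and was higher in the SI at all 3 levels. *Gata4*, a factor of the proximal intestine, had between 130 and 304 normalised counts in the SI libraries and 1 raw count in all LI libraries together. *Cdx1* was lower in SI centre than in LI centre (-0.60 ± 0.14, adjusted p = 0.0304), and *Smad4* was lower in SI row >3 than in LI row >3 (-0.49 ± 0.14, adjusted p = 0.0457, and 0.07 without SI replicate 3). Between sites, 2 factors were higher in the SI and 1 was lower in centre (1.19% and 0.805% of all genes), 2 were higher in border (1.15%) and 3 were higher and 1 lower in row >3 cells (2.76% and 1.32%). Without SI replicate 3 the counts higher and lower were 2 and 4 in centre (4.51% and 6.39%), 2 and 3 in border (3.7% and 4.4%) and 5 and 1 in row >3 cells (6.8% and 5.36%). In the 6 fits that each left out 1 library, each of these differences of *Cdx1* and *Smad4* was called in 1, and *Maf* was called in 2 for centre and in 3 for border cells.

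Across the 18 libraries the 10 genes did not form a single pattern. Pearson's r of log2 CPM over the 45 pairs of genes ranged from -0.55 to 0.97 with a median of 0.68, as a description of libraries that share their groups. *Ezr* (r = 0.97), *Vil1* (0.96) and *Myo1a* (0.95) followed the mean of the members most closely, and *Espn* (0.53), *Myo7b* (0.50) and *Eps8* (0.28) least. Of 10223 genes with a mean of at least 5 CPM, the 8 genes other than the 10 with the highest r to that mean were *Myo15b* (0.98), *Ttc22*, *Myh14*, *Slc9a3r1* (0.96), *Pklr*, *Dock5*, *Ceacam20* and *Nedd4l*. *Slc9a3r1* came first without SI replicate 3 (r = 0.98, 15 libraries).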

How the data were processed

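Epcam+ Lgr5-GFP cells were sorted by GFP level, dead cells were removed after TrypLE dissociation, and libraries were made with a SMART-Seq Stranded kit and sequenced as paired ends. The authors demultiplexed reads with bcl2fastq, trimmed them with Skewer, aligned them with STAR to mm10 and deposited raw counts per gene. A second deposited table holds the signal of the authors' normalisation, which is the raw count divided by 1 size factor per library, for 24814 genes, from their use of DESeq2. Neither the annotation release nor the use of strand in counting is stated in the sources used here.

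Raw counts of 26717 genes with a mean count above 0 were fitted in edgeR 4.0.16 with limma 3.58.1 (R 4.3.3), with TMM factors, robust glmQLFit, 6 group means and 12 residual degrees of freedom, and glmQLFTest with Benjamini-Hochberg adjustment at 0.05. Total counts of 8312093 to 31940965 per library set the precision, and counts of reads are not independent molecules. Alternatives were DESeq2 1.42.0, RLE factors, library size only, filterByExpr, no filter, replicate blocks, only the groups compared, each library left out in turn, and all SI replicate 3 libraries left out.

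Replicate numbers come from the labels. Deviations from the group mean of libraries with the same number correlated at 0.366 to 0.787 within the SI (9 pairs) and at 0.435 to 0.664 within the LI (9 pairs). The number was therefore used as a block within each site. Between sites they correlated at 0.181 to 0.298 in border cells (3 pairs) and at -0.082 to 0.442 at unlike levels (18 pairs). Counts with the block over all libraries are also given between sites in border and centre cells, where a pairing is not established (lowest correlation in centre cells 0.0078). The same holds in row >3 cells (lowest -0.0224), where this block also called *Ush1c* (edgeR adjusted p = 0.0226, against 3.86% of all genes). The 10 genes and all lists were chosen with earlier results of these data known. Named were the 10 genes, *Anks4b*, *Calml4*, per comparison up to 4 called genes in each direction of the other lists with the smallest adjusted p, and 8 genes by correlation, apart from items that are not reported here. Positions are from GENCODE M21 on GRCm38. Tables were made with Python 3.11.15, numpy 2.4.6 and pandas 2.3.3, and plots with matplotlib 3.10.9.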

Additional observations from a re-analysis of the deposited data

Results flagged for a closer look

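For 6 genes the log2 fold change of row >3 against centre differed between the SI and the LI by the test of the difference itself in edgeR, once the libraries of SI replicate 3 were left out. That choice was made after the data were seen. SI centre replicate 3 was the highest SI centre library for each of these genes except *Vil1*, so leaving it out lowers their centre mean. The SI exceeded the LI by 0.95 for *Vil1*, by 1.85 for *Myo1a* and by 0.90 for *Ezr*. It exceeded the LI by 1.37 for *Cdhr2*, by 2.32 for *Cdhr5* and by 2.30 for *Espn*. Of all genes, 2.57% were called in this direction, and 6 of 8 tuft cell and 3 of 7 goblet cell markers were too. With all 18 libraries and no block edgeR called none of the 6 differences, and DESeq2 called that of *Myo1a* (0.267% of all genes). With the block by replicate number 5 of them were called, all but that of *Cdhr5*, against 1.51% of all genes.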

How the results depend on the processing

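Of the values of single genes under other settings, 632 kept direction and side of the threshold, 43 passed it, 8 no longer passed it and 7 turned. With 1 library left out at a time, 488 kept both, 16 passed the threshold, 19 no longer passed it and 17 turned. In SI row >3 against centre, 4 of the 10 genes were called with only the groups compared. In LI row >3 against centre, calls of the 10 genes were 1 higher and 1 lower with the block within site and 1 lower without SI replicate 3. They were 1 with DESeq2, 6 with the block and 4 without SI replicate 3 in SI border against centre. Between sites in centre they were 2 with DESeq2, 2 with the block over all libraries, and 2 higher and 3 lower without SI replicate 3. In border cells they were 4 with that block. For the difference of the contrasts they were 1 with DESeq2, 5 with the block and 6 without SI replicate 3. Calls of the wider list were 1 with DESeq2, 3 with the block, 2 with only the groups compared and 2 without SI replicate 3 in LI row >3, and 2, 9 and 1 with DESeq2, the block and without SI replicate 3 in SI border cells. Between sites they were 14 higher and 1 lower in centre with DESeq2, and likewise with the block, and 18 with either in border cells. For the difference of the contrasts they were 1, 6 and 4 with DESeq2, the block and without SI replicate 3. Of all genes, 2.07% and 2.55% were called higher and 1.5% and 3.06% lower in centre cells with DESeq2 and the block. In border cells 2.37% and 2.3% were called higher, and 0.267%, 1.51% and 2.57% for the difference of the contrasts. They were 0.0601%, 1.28%, 0.542% and 0.982% in LI row >3 and 0.425%, 1.55% and 0.905% in SI border cells, in the order of the settings above. Each library was also left out in turn, with calls given for the 10 genes and then the wider list. They ranged from 4 to 8 and from 15 to 31 in SI row >3 against centre (4.48% to 7.96% of all genes higher). In SI border against centre they ranged from 0 to 4 and from 0 to 1 (0% to 1.14% higher). Between sites they ranged from 1 to 4 and from 2 to 12 in centre (0.378% to 1.97% higher, 0.188% to 2.69% lower). In border cells they ranged from 1 to 3 and from 3 to 12 (0.414% to 1.72% higher). For the difference of the contrasts they ranged from 0 to 3 and from 0 to 1 (0% to 0.757% higher). Directions turned only for values that were not called. With library size only, *Myo7b* was at -0.098 in LI row >3, at -0.053 in SI border and at -0.0079 in LI border against centre, and in SI border it was at -0.0054 with only the groups compared and at -0.15 without SI replicate 3. *Espn* between sites was at -0.15 in border and at -0.12 in row >3 cells without SI replicate 3. With 1 library left out, *Myo7b* ranged from -0.29 to 0.0047 in SI row >3, from -0.085 to 0.092 in LI row >3, from -0.17 to 0.12 in SI border and from -0.025 to 0.052 in LI border against centre. *Eps8* ranged from -0.32 to 0.097 in SI row >3, *Ush1c* from -0.0034 to 0.46 in LI row >3 and from -0.050 to 0.27 in LI border, *Ezr* from -0.042 to 0.14 and *Alpi* from -0.36 to 1.27 in LI border against centre. Between sites *Ezr* ranged from -0.20 to 0.0049 in centre, *Cdhr2* from -0.029 to 0.69 and *Espn* from -0.17 to 0.69 in border, and *Espn* from -0.16 to 0.51 in row >3 cells. The cause of these changes was not tested, except that fits of only the groups compared hold fewer libraries. In LI comparisons without SI replicate 3 the LI libraries are the same, and the estimate of the spread is another. Library size alone moved the median of the 10347 genes by -0.19 in SI and by -0.12 in LI row >3 against centre. A block within site cannot test a difference between sites and was not run for it. Pairs between sites correlated at 0.0078 to 0.325 in centre and at -0.0224 to 0.364 in row >3 cells. The size of difference that 3 libraries a group could detect was not tested, and *Alpi* in the LI rests on 5 to 53 reads. A gene that was not called may therefore still differ.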
